A study of Mus musculus with 6 samples.

Results

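Galectins are lectins that bind galactose-containing sugars on glycoproteins, inside the cell and after secretion. S100 proteins are small calcium sensors with paired EF-hand motifs that act mostly as dimers and switch partner proteins on and off as calcium rises. In the brain both families are best known from glia and neural stem cells: S100B marks astrocytes and maturing oligodendrocytes, and galectin-1 is made by stem cell astrocytes of the adult mouse subventricular zone. The transcripts described here were the 3 galectin genes Lgals1, Lgals3 and Lgals8 and the 7 S100A genes S100a1, S100a4, S100a6, S100a10, S100a11, S100a13 and S100a16, found by gene name among the 54532 genes of the deposited table. These 10 genes were chosen with the read counts of KO against WT libraries in view, so their differences between KO and WT are given as a description, without p-values.

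RNA was sequenced from primary neurospheres, floating colonies of neural progenitors, grown for 6 days from C57BL/6 mouse embryos at E14.5. The KO spheres came from Ash2l conditional knockout embryos, in which D6-Cre, a recombinase active in the dorsal forebrain, removes a shared subunit of the complexes that methylate lysine 4 of histone H3. The WT spheres carried the genotype label WT, and whether these embryos had Cre or floxed alleles is not given in the sources used here. There were 3 KO libraries (KO 1, KO 2 and KO 3) and 3 WT libraries (WT 3, WT 6 and WT 7), and the labels do not say whether each came from its own embryo or culture, so p-values reflect library-to-library spread alone, which could be technical. Both groups grew in medium with EGF and bFGF. The source label names dorsal cortex, whereas the growth protocol names the walls of the lateral ventricles.

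Library totals ran from 16764480 to 21983659 reads, at which 3 reads correspond to 0.136 to 0.179 CPM, reads scaled to library size. Ash2l had 86.3, 99.3 and 102 CPM in KO 1, KO 2 and KO 3, against 116, 113 and 109 CPM in WT 3, WT 6 and WT 7, with a log2 fold change of -0.24 (SE 0.10; adjusted p = 0.119 by the quasi-likelihood test of edgeR with Benjamini-Hochberg adjustment) that was not called. Which exons the deletion removes is not stated, and reads from all other exons count too, so the labels were checked only in part. Across all genes 29.0% passed an adjusted p of 0.05 in KO against WT, 13.5% higher and 15.5% lower in KO, and the KO and WT libraries did not overlap in 48.6%. Of the 10 galectin and S100A genes, 9 had enough reads to be tested. Of these, 2 were called higher and 5 lower in KO, and the groups did not overlap in these 7, counts from which nothing can be read because the genes were chosen on this contrast. Their median log2 fold change was -1.21, against 0.00186 over all 16606 tested genes.

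The S100A genes lie on chromosome 3 in 2 blocks, and the tested genes of the blocks had log2 fold changes of opposite sign. This is a description, since the S100A genes of the set were chosen on this contrast. S100a11 of the second block was not called, and S100a3 and S100a14 of the first, outside the set, were tested only through WT. The first block (mm10, chromosome 3, 90511034 to 90695721) holds S100a1, S100a13, S100a16, S100a6 and S100a4, and the second (93520488 to 93564643) holds S100a11 and S100a10. S100a1 and S100a13 stand back to back, with their annotated spans 42 bases apart on opposite strands. RefSeq places their starts 104 bases apart, so that their promoter windows, each 250 bases before to 50 after the start, share 204 bases. The S100a13 window (RefSeq, GRCm38.p6, plus strand, chr3:90514185-90514484) is shown because both genes of the pair were lower in KO, with capitals for the bases between the 2 starts. The S100a11 window (plus strand, chr3:93520246-93520545) is shown as the only one available for the second block, with capitals for matches to the motifs described after it.
S100a13: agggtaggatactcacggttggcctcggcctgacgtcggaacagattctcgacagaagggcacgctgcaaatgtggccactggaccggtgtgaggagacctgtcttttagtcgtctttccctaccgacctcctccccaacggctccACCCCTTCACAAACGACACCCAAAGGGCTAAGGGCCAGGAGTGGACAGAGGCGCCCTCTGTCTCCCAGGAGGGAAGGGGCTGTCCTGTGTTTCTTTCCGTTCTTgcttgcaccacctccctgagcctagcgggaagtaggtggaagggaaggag
S100a11: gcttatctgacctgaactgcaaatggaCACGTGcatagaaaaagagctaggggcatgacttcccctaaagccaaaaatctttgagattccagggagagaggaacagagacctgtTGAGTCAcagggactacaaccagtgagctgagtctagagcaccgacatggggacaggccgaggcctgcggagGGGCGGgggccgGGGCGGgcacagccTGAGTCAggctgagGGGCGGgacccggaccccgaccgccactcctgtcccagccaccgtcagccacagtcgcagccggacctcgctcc

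Windows for 8 of the 10 genes were searched on both strands for the AP-1 motif TGANTCA, the E-box CACGTG, the GC box GGGCGG and the TATA box TATAAA, and no matches to different motifs overlapped in the S100a11 window. No window was available for Lgals1 and S100a10, the 2 genes called higher in KO, so windows of higher and lower genes cannot be compared. The S100a11 window held 2 AP-1 matches, starting 136 and 38 bases before the start, 3 GC box matches and 1 E-box match. At least 1 AP-1 match stood in 7.81% of all 32851 windows and at least 2 in 0.46%, at least 1 GC box match in 35.7% and an E-box match in 7.15%. The S100a1 and S100a13 windows held none of these 4 motifs. The S100a6 window held 1 E-box match, the S100a4 window 1 TATA box match, which stood in 13.6% of all windows, and the Lgals3 window 2 GC box matches. The Lgals8 window held none, and of the 2 S100a16 windows 1 had none and the other held an AP-1 match and a GC box match. A match describes the letters of a window and shows no binding.

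Galectin-1 was the galectin with the largest difference. Lgals1 (ENSMUSG00000068220, chromosome 15, 78926725 to 78930465), whose product is a secreted dimeric galectin, had 315, 240 and 309 CPM in KO 1, KO 2 and KO 3, against 24.3, 29.1 and 25.4 CPM in WT 3, WT 6 and WT 7. Every KO library lay far above every WT library, with KO 2 the lowest of the KO libraries. KO exceeded WT by 3.45 on the log2 scale (SE 0.15), a fold of 10.95, with values from 3.399 to 3.57 when single libraries were omitted. Per gene length, Lgals1 had an FPKM of 325 ± 48.8 in KO and 28.4 ± 2.18 in WT (SD, n = 3 each). Its pseudogenes Lgals1-ps1 and Lgals1-ps2 had 0 reads in all libraries.

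Lgals8 (ENSMUSG00000057554, chromosome 13, 12439415 to 12464944) encodes galectin-8, a galectin with paired sugar-binding domains that marks damaged endosomes for autophagy. Its level was lower in KO, at 26.5, 26.2 and 28.2 CPM in the KO libraries, against 46.5, 70.2 and 70.1 CPM in WT 3, WT 6 and WT 7. The KO libraries were almost equal, and WT 3 lay nearest to them. On the log2 scale the difference was -1.21 (SE 0.18), which is 43.3% of the WT level, and -1.38 without WT 3. The span of Lgals8 overlaps that of Heatr1 on the other strand, a ribosome biogenesis gene with 106% of its mean read count, and the strand setting of the counting is not given in the sources used here. Heatr1 itself averaged 58.7 ± 14.3 CPM in KO and 38.7 ± 6.82 CPM in WT (SD, n = 3 each), with overlapping libraries.

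Galectin-3, which is secreted by activated microglia and macrophages, did not separate KO from WT. Lgals3 (ENSMUSG00000050335, chromosome 14, 47367751 to 47386160) had 7.72, 2.11 and 1.23 CPM in KO 1, KO 2 and KO 3, against 1.40, 3.11 and 2.27 CPM in WT 3, WT 6 and WT 7. Only KO 1 stood above the WT range, and KO 3 was the lowest of the 6 libraries. The log2 fold change of 0.69 (SE 0.69) was -0.41 without KO 1.

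**Figure D1:**
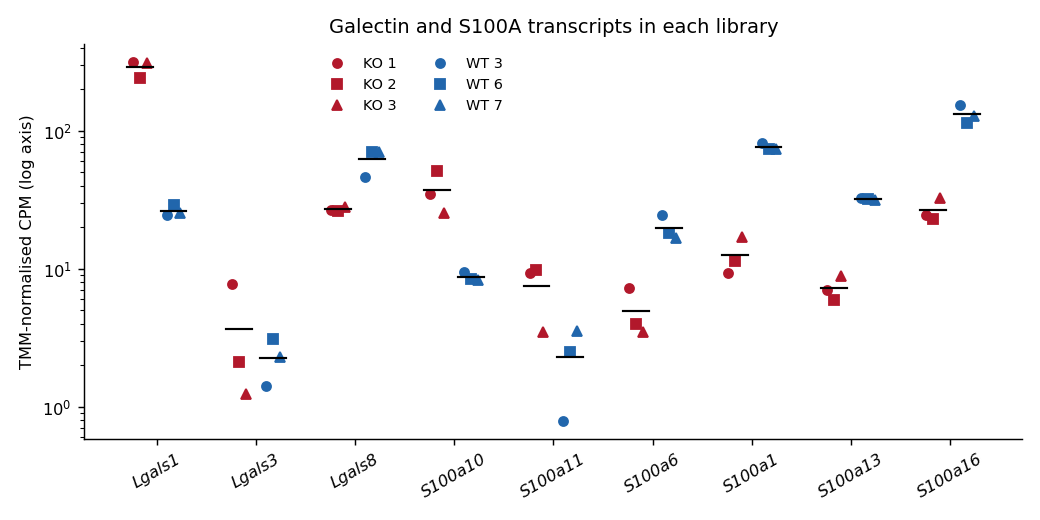
Level of each tested galectin and S100A gene in TMM-normalised CPM on a log axis, with 1 point per library, KO in red left of WT in blue, and black bars for group means. Lgals1 and S100a10 lie higher in every KO library, Lgals8, S100a6, S100a1, S100a13 and S100a16 lie lower in every KO library, and Lgals3 and S100a11 overlap.

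Within the first S100 block S100a1, S100a13, S100a16 and S100a6 were lower in all KO libraries. S100a1 (ENSMUSG00000044080, chromosome 3, 90511034 to 90514392, minus strand), known in heart muscle as a regulator of the ryanodine receptor, had 9.34, 11.3 and 17.1 CPM in KO 1, KO 2 and KO 3, against 81.8, 73.3 and 74.0 CPM in WT 3, WT 6 and WT 7. The 2 groups were far apart, and KO 3 was the highest KO library. The log2 fold change of -2.60 (SE 0.23) was the most negative of the 10 genes, with KO at 16.5% of the WT level.

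Its neighbour S100a13 (ENSMUSG00000042312, 90514435 to 90524581, plus strand), which helps to export FGF1 from the cell, had 6.97, 5.88 and 8.89 CPM in the KO libraries, against 32.5, 31.9 and 31.5 CPM in the WT libraries. The WT values were nearly the same, and KO 3 was again the highest KO library. This gave -2.14 on the log2 scale (SE 0.19). The FPKM of S100a1 over that of S100a13 was 1.38, 1.98 and 1.98 in KO 1, KO 2 and KO 3, against 2.60, 2.36 and 2.42 in WT 3, WT 6 and WT 7. The ratio was lower in every KO library than in any WT library.

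S100a16 (ENSMUSG00000074457, 90537254 to 90543151) is a widely expressed S100 gene and was the most read of the S100A genes in WT. It had 24.6, 22.9 and 32.8 CPM in KO 1, KO 2 and KO 3, against 153, 114 and 128 CPM in WT 3, WT 6 and WT 7. KO 3 was once more the highest KO library and WT 3 the highest of all, and the log2 fold change was -2.30 (SE 0.18).

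S100a6 (ENSMUSG00000001025, 90612882 to 90624181) encodes calcyclin, a partner of the ubiquitin ligase adaptor encoded by Cacybp. It had 7.26, 3.995 and 3.50 CPM in KO 1, KO 2 and KO 3, against 24.4, 18.0 and 16.6 CPM in WT 3, WT 6 and WT 7. Here KO 1, not KO 3, was the highest KO library. Its log2 fold change was -2.002 (SE 0.33), and -2.36 without KO 1.

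S100a4 (ENSMUSG00000001020, 90603771 to 90606045), an S100 gene of fibroblasts and motile cells whose product binds non-muscle myosin, was the 1 gene of the 10 with too few reads to be tested. It had 1, 0 and 0 reads in the KO libraries and 3, 0 and 1 reads in the WT libraries, at or below 3 reads in each, so no difference could be seen at this depth.

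In the second block both S100 genes had higher means in KO. S100a10 (ENSMUSG00000041959, 93555080 to 93564643) encodes p11, an S100 protein that no longer binds calcium and forms a tetramer with annexin A2 at the plasma membrane. It had 34.8, 50.9 and 25.3 CPM in KO 1, KO 2 and KO 3, against 9.42, 8.44 and 8.29 CPM in WT 3, WT 6 and WT 7. The groups did not overlap, and KO 2 was the highest library. KO over WT gave a log2 fold change of 2.08 (SE 0.27), a fold of 4.24, and ranged from 1.79 without KO 2 to 2.32 without KO 3.

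S100a11 (ENSMUSG00000027907, 93520488 to 93526287), whose product binds annexin A1 and promotes plasma membrane repair, had 9.34, 9.83 and 3.45 CPM in KO 1, KO 2 and KO 3, against 0.785, 2.51 and 3.55 CPM in WT 3, WT 6 and WT 7. KO 3 lay within the WT range, just under WT 7, and WT 3 was the lowest library. Its log2 fold change of 1.71 (SE 0.61) was not past the threshold over all genes. It passed with DESeq2, with limma-voom, with no filter on low counts and without KO 3. S100a11 was chosen on this contrast, so these passes are a description and no support for a difference.

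**Figure D2:**
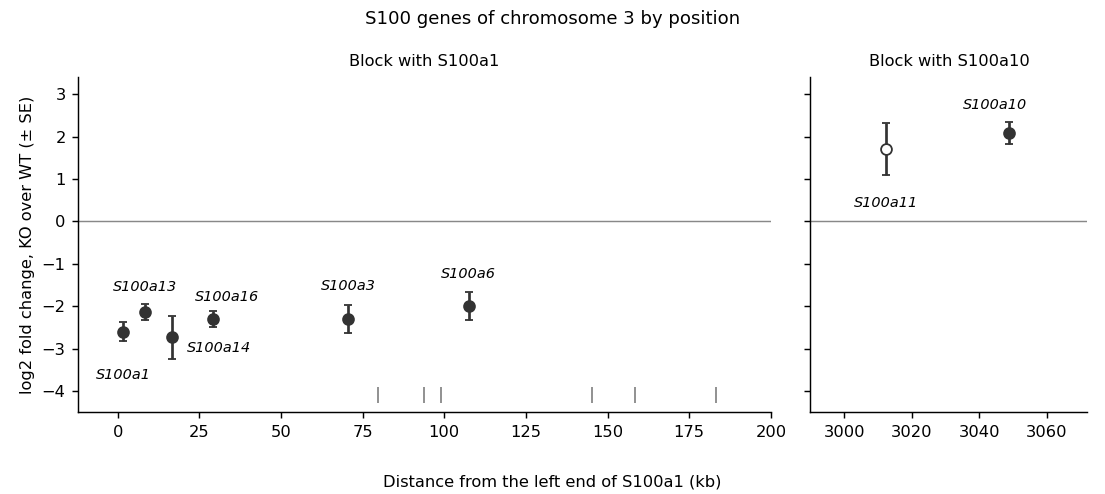
Log2 fold change of KO over WT with its SE for the S100 genes of chromosome 3, placed by the distance of each gene's middle from the left end of S100a1 in kb, with the first block left and the second right. Filled points passed the threshold, the open point (S100a11) did not, and grey ticks mark S100 genes with too few reads to be tested: the 6 tested genes of the first block lie between -2.73 and -2.002, and both genes of the second block lie above 0. S100a3 and S100a14 were tested only through WT, and S100a7l2, between the blocks and without reads, is not drawn.

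Per gene length, Lgals1 dominated the summed level of the 10 genes in KO and S100A genes in WT. Summed FPKM was 467, 383 and 441 in KO 1, KO 2 and KO 3, against 330, 287 and 292 in WT 3, WT 6 and WT 7. Lgals1 alone made up 77.4%, 70.5% and 78.1% of that sum in the KO libraries, against 8.28%, 10.8% and 9.24% in the WT libraries. Within the S100A genes, S100a10 and S100a11 of the second block made up 51.8%, 59.5% and 31.6% of summed FPKM in KO 1, KO 2 and KO 3, against 3.26%, 4.83% and 5.39% in WT 3, WT 6 and WT 7. The share was lowest among KO libraries in KO 3 and still above every WT library.

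In KO spheres the order of mean FPKM ran from Lgals1 through S100a10 (31.1 ± 10.9), S100a1 (18.4 ± 5.64), S100a16 (16.8 ± 3.16), S100a11 (15.1 ± 7.19), S100a13 (10.3 ± 2.08), Lgals8 (7.46 ± 0.243), S100a6 (3.68 ± 1.58) and Lgals3 (2.04 ± 1.97) to S100a4 (SD, n = 3). Neighbours from S100a10 to S100a13 in that order overlapped in their libraries, as did S100a6 and Lgals3. In WT spheres S100a1 came first at an FPKM of 108 ± 10.3, then S100a16 (79.9 ± 14.5), S100a13 (43.8 ± 2.01), Lgals1, Lgals8 (16.4 ± 3.16), S100a6 (14.1 ± 3.46), S100a10 (7.04 ± 0.732), S100a11 (4.32 ± 2.58), Lgals3 (1.18 ± 0.421) and S100a4 (SD, n = 3). The WT libraries overlapped between Lgals8 and S100a6, between S100a10 and S100a11 and between S100a11 and Lgals3, and between no other neighbours.

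**Figure D3:**
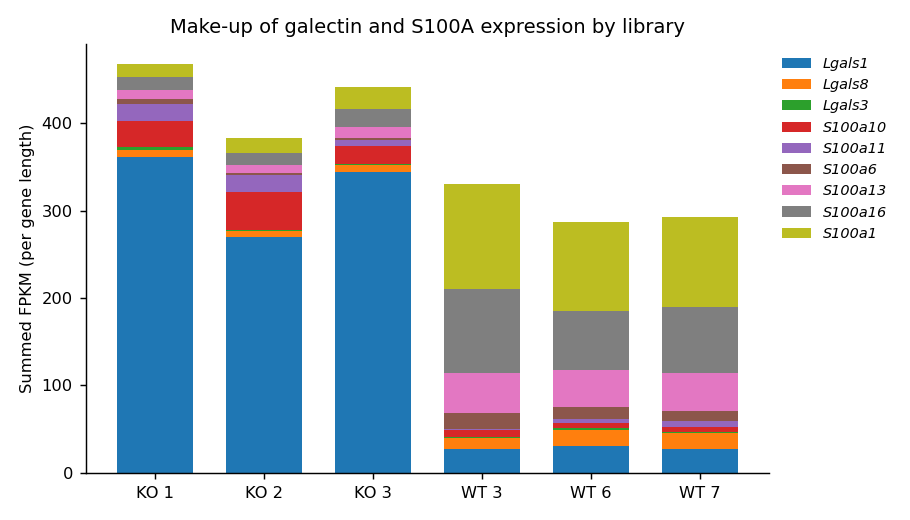
Summed FPKM of the galectin and S100A genes in each library, stacked by gene, with the 3 KO libraries left of the 3 WT libraries. Lgals1 fills 70.5% to 78.1% of the KO bars and 8.28% to 10.8% of the WT bars, and S100a1, S100a16 and S100a13 fill most of the WT bars. S100a4 is too low to be drawn.

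The rest of both families was read from lists that were likewise drawn up with earlier results of these data known. The deposited data list 18 other galectin and S100 genes, of which 7 could be tested. Of these 4 were called lower and 0 higher (edgeR quasi-likelihood test, adjusted over all genes), where 15.5% of all tested genes were lower and 13.5% higher. Of the 4, S100a3 and S100a14 reached the minimum of reads only through WT, the group where they were high, so their calls carry no weight here. At an unadjusted p under 0.05, 2 were higher, Lgals7 and Lgals9. Lgals9 was called higher with DESeq2, and both genes with no filter on low counts. Lgals7 was called higher with limma-voom and with limma on log2(FPKM + 1) and on log2(FPKM + 0.1). Both reached the minimum of reads only through KO, where they were high, so these values carry no weight here either.

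S100b, the classic astrocyte and oligodendrocyte S100 gene on chromosome 10, had 1.10, 1.40 and 2.32 CPM in KO 1, KO 2 and KO 3, against 27.8, 17.6 and 13.5 CPM in WT 3, WT 6 and WT 7. Its log2 fold change was -3.60 (SE 0.40, adjusted p = 0.00216, edgeR quasi-likelihood test), the most negative of the 16 tested genes of both families. As with S100a1, S100a13 and S100a16, the highest KO library was KO 3. Its span overlaps Dip2a on the other strand, which had 984% of its mean count and a log2 fold change of -0.24 (SE 0.10). The 2 other tested genes of the first block of chromosome 3 had few reads. S100a14 had 2, 4 and 4 reads in the KO libraries, against 33, 20 and 16 reads in the WT libraries, and S100a3 had 7, 10 and 10 reads in KO, against 35, 58 and 45 reads in WT. The minimum of 0.513 CPM was reached by 3 WT libraries for both genes, by 1 KO library for S100a3 and by 0 for S100a14, so a lower value in KO was built into their testing. Their log2 fold changes of -2.73 (SE 0.51) for S100a14 and -2.29 (SE 0.33) for S100a3 are therefore a description. S100a3 also overlaps S100a2 on the same strand.

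Of the 6 S100 genes of the first block that were not tested, S100a5, S100a8 and S100a9, the last pair being the calgranulins of neutrophils, had 0 reads in all libraries, which allows up to 0.179 CPM in the shallowest library, for counting error only. S100a7a had 1 read in each KO library, against 7, 5 and 11 reads in WT 3, WT 6 and WT 7, and S100a2 and S100a4 had at most 5 reads in any library. Between the 2 blocks lie 2824766 bases with 59 protein-coding genes that are not S100 genes, among them genes of the epidermal differentiation complex. The S100 gene S100a7l2, listed in the table under its older name 9130204L05Rik (RefSeq synonym), also lies there and had 0 reads in all libraries. No reads fell on 43 of the 59 genes, and 3 could be tested. Lor, which encodes the skin protein loricrin, rose, with 7.67, 7.29 and 1.75 CPM in KO 1, KO 2 and KO 3, against 1.23, 1.21 and 1.04 CPM in WT 3, WT 6 and WT 7 (log2 fold change 2.25, SE 0.56, adjusted p = 0.0254, edgeR), a call that ended without KO 1, KO 2, WT 6 or WT 7 and on log2(FPKM + 1).

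Among the other galectins, Lgals4 fell, a galectin best known from the gut lining. It had 2.94, 2.97 and 6.24 CPM in KO 1, KO 2 and KO 3, against 12.6, 7.63 and 11.3 CPM in WT 3, WT 6 and WT 7 (log2 fold change -1.37, SE 0.38, adjusted p = 0.0344, edgeR). That call ended without KO 1, KO 2, WT 6 or WT 7. Lgals9, encoding galectin-9, an immune regulator induced by interferon, had 11.6, 1.35 and 0.851 CPM in KO 1, KO 2 and KO 3, against 0.337, 0.452 and 1.04 CPM in WT 3, WT 6 and WT 7. Only KO 1 and KO 2 exceeded the WT range, and the log2 fold change of 2.88 (SE 1.08) did not pass (adjusted p = 0.0839, edgeR). It was 0.86 without KO 1 and 3.50 without WT 7, and it passed without KO 3.

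Lgals7, a galectin of stratified epithelia, had 19, 15 and 21 reads in the KO libraries, against 9, 1 and 1 reads in the WT libraries, and missed the threshold (2.29, SE 0.77, adjusted p = 0.0625, edgeR). Lgals7 reached the minimum only in KO libraries and Lgals9 in 3 KO libraries and 1 WT library, so a higher value in KO was built into their testing. Without WT 3 the Lgals7 value was 4.14 and passed, which is likewise a description. The galectin-related gene Lgalsl was nearly level, at 78.4 ± 12.1 CPM in KO and 71.2 ± 0.275 CPM in WT (SD, n = 3 each; log2 fold change 0.14, SE 0.13, adjusted p = 0.437, edgeR). Lgals2 had 1, 2 and 3 reads in KO and 3, 29 and 19 reads in WT, and shares its locus with the far more read Cdc42ep1. Lgals12 and Grifin had at most 21 reads in any library, S100g at most 4 and S100z 0, and Lgals6 was not analysed here.

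**Figure D4:**
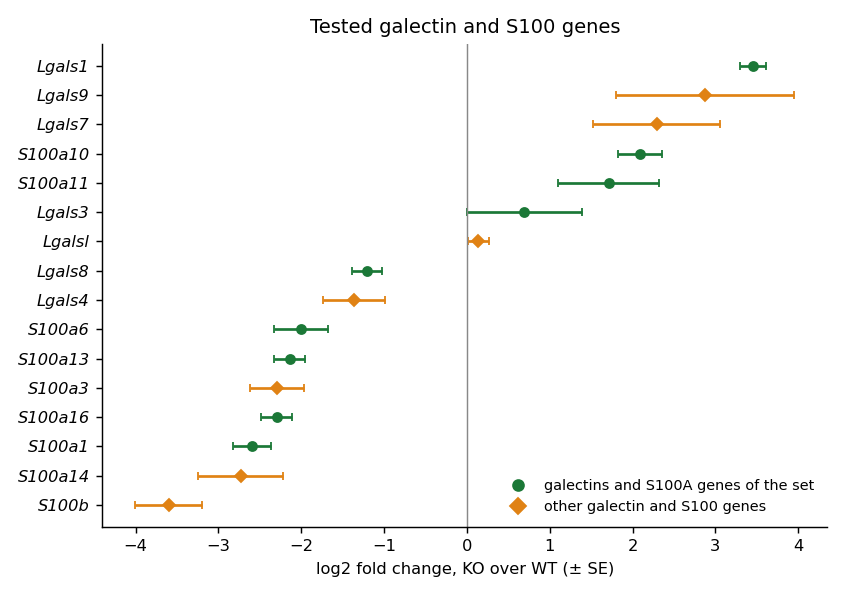
Log2 fold change of KO over WT with its SE for the 16 tested galectin and S100 genes, in order of the value, with green circles for the 9 tested genes of the chosen set and orange diamonds for the 7 others. S100b is lowest at -3.60 and Lgals1 highest at 3.45, and the intervals of Lgals3, Lgals7, Lgals9 and S100a11 are the widest.

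Of 36 genes listed as binding partners of these proteins or as makers of the sugars that galectins bind, 33 were tested, 10 rose and 4 fell, with a median of 0.41. These are 30.3% and 12.1% of the tested partners, beside 13.5% higher and 15.5% lower over all genes. The partner lists too were drawn up with earlier results of these data known, so these shares are a description and show no enrichment. Partner calls in all were 7 without WT 6 and 8 without KO 1, without KO 2 or without WT 7. Among S100 partners 5 of 14 rose and 2 fell, and of the 5 Htr1b was tested only through KO, where it was high. Anxa2, which encodes annexin A2, had 70.3, 61.4 and 61.6 CPM in KO 1, KO 2 and KO 3, against 19.8, 13.7 and 16.3 CPM in WT 3, WT 6 and WT 7 (log2 fold change 1.96, SE 0.16, adjusted p = 0.000999, edgeR). Per gene length, the FPKM of S100a10 over that of Anxa2 was 1.53, 2.55 and 1.26 in KO, against 1.47, 1.90 and 1.57 in WT, so that the ratio overlapped between groups while both genes were higher in KO. Ahnak, a giant scaffold that binds the annexin A2 and p11 complex, fell (9.51 ± 1.89 CPM in KO and 41.0 ± 6.44 CPM in WT, SD, n = 3 each; log2 fold change -2.11, SE 0.20, adjusted p = 0.00148, edgeR).

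Cacybp, the calcyclin binding protein gene (0.82, SE 0.10), and Myh9, the heavy chain of non-muscle myosin (0.78, SE 0.13), rose, and Plat, the plasminogen activator whose activity the annexin A2 complex promotes, fell (-0.76, SE 0.10). Ryr2, the heart ryanodine receptor (2.41, SE 0.65), also rose, but the call ended without KO 1, KO 2, WT 6 or WT 7. Htr1b, the serotonin receptor that p11 carries to the membrane, averaged 0.919 ± 0.454 CPM in KO and 0.194 ± 0.127 CPM in WT (SD, n = 3 each). It reached the minimum of reads in all KO and no WT libraries, so its log2 fold change of 2.23 (SE 0.59; 2.83 without WT 3) is a description. Adjusted p-values of Cacybp, Myh9, Plat and Ryr2 ran from 0.00254 for Cacybp to 0.032 for Ryr2 (edgeR quasi-likelihood, Benjamini-Hochberg).

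Among galectin partners 5 of 19 rose and 2 fell (26.3% and 10.5%), beside 13.5% higher and 15.5% lower over all genes. Trim16, an autophagy ligase that works with galectin-3 on damaged lysosomes, had 8.24, 5.99 and 5.49 CPM in KO 1, KO 2 and KO 3, against 1.68, 1.05 and 1.52 CPM in WT 3, WT 6 and WT 7 (log2 fold change 2.21, SE 0.31, adjusted p = 0.0039, edgeR). The lysosomal membrane glycoproteins Lamp2 (-1.25, SE 0.21) and Lamp1 (-0.95, SE 0.25) fell, and Nrp1 (0.98, SE 0.22), a receptor that galectin-1 binds, rose. Of the listed enzyme genes for the sugar chains that galectins bind, the N-glycan branching genes Mgat2 (0.50, SE 0.12), Mgat4b (0.41, SE 0.10) and Mgat5 (0.35, SE 0.10) rose. Adjusted p-values of these 6 genes, from Lamp2 to Mgat5, ran from 0.00716 for Lamp2 to 0.0407 for Mgat5 (edgeR). The other listed enzyme genes were not called and went both ways. Mgat4a (0.48, SE 0.25) and B4galt1 (0.52, SE 0.23) were above 0, and Mgat1 (-0.21, SE 0.12), St6gal1 (-0.40, SE 0.15) and B3gnt2 (-0.99, SE 0.65) below. B3gnt2 reached the minimum of reads in 3 WT libraries and 1 KO library, so a lower value in KO was built into its testing. Omitting any 1 library kept the calls of Trim16 and Lamp2, while those of Lamp1, Nrp1, Mgat2, Mgat4b and Mgat5 each ended without KO 1, WT 6 or WT 7, and all of these except Nrp1 also without KO 2. Without KO 3 the calls of Lamp1, Mgat4b and Mgat5 ended, and without WT 3 that of Mgat5. With no filter on low counts neither Mgat4b nor Mgat5 was called, and with DESeq2 Mgat5 was not. Itgb1, an integrin subunit that galectins cross-link, had 401 ± 55.7 CPM in KO and 374 ± 54.5 CPM in WT (SD, n = 3 each) and was not called (0.10 on the log2 scale, SE 0.16, adjusted p = 0.658, edgeR), with -0.016 without KO 2 and -0.018 without WT 3.

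Lgals3bp, a secreted ligand of galectin-3, had 8.99, 6.96 and 2.46 CPM in KO 1, KO 2 and KO 3, against 1.01, 3.92 and 2.65 CPM in WT 3, WT 6 and WT 7 (log2 fold change 1.27, SE 0.61, adjusted p = 0.155, edgeR). As for S100a11, KO 1 and KO 2 lay above the WT libraries and KO 3 within their range.

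Markers of other cell types moved with some of these genes. In KO 1, where Lgals3 and Lgals9 were highest, 7 fibroblast markers summed to 676 CPM, against 39.0 and 84.2 CPM in KO 2 and KO 3 and 25.0, 32.9 and 47.4 CPM in WT 3, WT 6 and WT 7. The collagen gene Col3a1, for instance, had 293 CPM in KO 1 and at most 26.2 CPM in any other library. Summed CPM of 10 microglial markers was 26.2 in KO 1, against 2.41 to 8.89 in the other 5 libraries, and 0 of the 5 that could be tested were called. P2ry12 was at 0 in WT 3 and Itgam in KO 3 and WT 7. Of the fibroblast markers 1 of 6 tested, Lum, was called higher, and Twist1 was at 0 in WT 3 and WT 7. Over all tested genes 29.0% were called and 13.5% were higher. Lum had 395, 27 and 31 reads in KO 1, KO 2 and KO 3, against 9, 8 and 9 reads in WT 3, WT 6 and WT 7. It was tested only through KO, where it was high, so its call carries no weight here. The part of these cells in the levels of Lgals1, S100a10, Lgals3, Lgals9, Lgals3bp, S100a11 and S100a6 was not tested. Without KO 1 the log2 fold changes of Lgals1 and S100a10 were 3.41 and 2.16. The fibroblast sum of KO 3 (84.2 CPM) also lay above every WT library, so leaving out KO 1 is no test of that part.

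**Figure D5:**
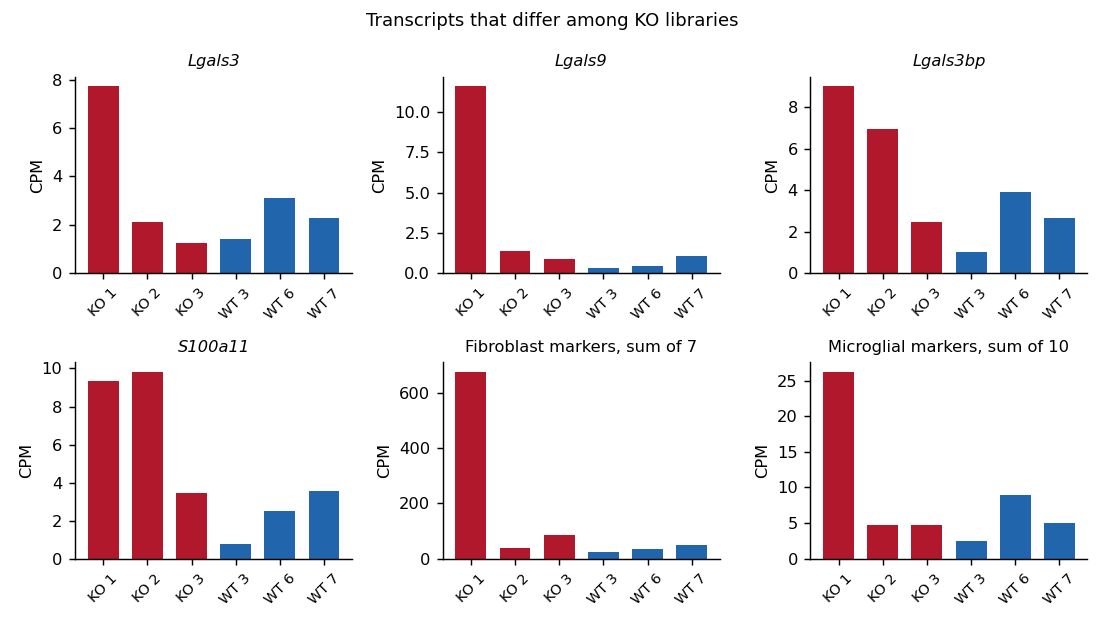
Level in CPM of Lgals3, Lgals9, Lgals3bp and S100a11 and the summed CPM of 7 fibroblast and 10 microglial markers, as 1 bar per library with the KO libraries in red left of the WT libraries in blue. KO 1 is the highest library in each panel except that of S100a11, where KO 2 is slightly higher, and the fibroblast sum of 676 CPM in KO 1 stands far above the others.

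Glial markers were lower in KO alongside the first S100 block. Of 8 oligodendrocyte lineage markers 6 fell and of 8 astrocyte markers 6 fell, and 0 of either list rose (edgeR). Over all tested genes 15.5% were lower and 13.5% higher. Among the 6 oligodendrocyte markers, Mag had 2, 4 and 35 reads in KO 1, KO 2 and KO 3. It was tested only through WT, where it was high, so its call carries no weight here. Oligodendrocyte markers summed to 1114, 2043 and 1747 CPM in KO 1, KO 2 and KO 3, against 4566, 3824 and 4102 CPM in WT 3, WT 6 and WT 7, while astrocyte markers summed to 1633, 2378 and 1478 CPM in KO, against 3136, 8629 and 9450 CPM in WT. The astrocyte sum was lowest among WT libraries in WT 3. The oligodendrocyte sum and S100a1, S100a13, S100a16, S100a6 and S100b were highest there. For S100a13 the WT values were nearly the same (32.5, 31.9 and 31.5 CPM in WT 3, WT 6 and WT 7). KO 3 was the highest KO library for S100a1, S100a13, S100a16 and S100b and for the oligodendrocyte markers Sox10, Mbp, Cnp, Mag and Pdgfra, whereas Olig1, Olig2 and the sum of the list were highest in KO 2. The part of glial cells in these levels was not tested, and in bulk RNA fewer cells of a type and less RNA per cell cannot be told apart. All 6 markers of cycling cells rose, with sums of 1571, 2001 and 1537 CPM in KO, against 318, 185 and 171 CPM in WT, in the direction of Lgals1 and S100a10, and their part in those levels was not tested.

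Neuron markers summed to 3542, 2404 and 2694 CPM in KO 1, KO 2 and KO 3, against 2437, 1591 and 1393 CPM in WT 3, WT 6 and WT 7, with 2 of 7 higher and 0 lower. Neural progenitor markers summed to 3700, 5625 and 3562 CPM in KO, against 3775, 5110 and 4083 CPM in WT, with 1 of 7 higher and 4 lower. Over all tested genes 13.5% were higher and 15.5% lower. The 7 endothelial markers summed to 3.41 to 5.71 CPM in KO and 5.26 to 7.48 CPM in WT. Of these only Kdr was lower in KO (mean 1.11 CPM, against 4.70 CPM in WT) and called. Pecam1, Esam, Tek, Flt1, Cldn5 and Cdh5 had higher means in KO, with Cldn5 and Cdh5 at 0 in all WT libraries. Pecam1 and Esam were tested and not called, and the others had too few reads to be tested. The 7 mural markers summed to 55.1 to 93.0 CPM in KO and 118 to 137 CPM in WT, mostly from Notch3, which fell, with Kcnj8 at 0 in all WT libraries. Acta2 had 23, 13 and 24 reads in KO 1, KO 2 and KO 3 and 2 reads in each WT library. It was tested only through KO, where it was high, so its call as higher carries no weight here. Choroid plexus and ependymal markers summed to 84.6, 250 and 96.9 CPM in KO, against 15.5, 141 and 78.3 CPM in WT, mostly from Ttr except in WT 3, where Ttr had 0.112 CPM and Foxj1 14.5 CPM.

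The genes most like Lgals1 over the 6 libraries, by the root mean square distance between log2 CPM profiles centred on their own means, were Ung (0.33), a uracil-DNA glycosylase, Cdt1 (0.33), a replication licensing factor, and Eme1 (0.33), a subunit of a DNA repair nuclease. Nearest to S100a6 were Gpr153 (0.17), Tmem163 (0.22) and Ptpre (0.25), all lower in KO and with KO 1 as their highest KO library. Closest of all lay Slc30a10 (0.10), a metal exporter gene, to S100a1, followed by Hhipl1 (0.14) and Lgi3 (0.17). Slc30a10 had 15.0, 14.9 and 23.8 CPM in KO 1, KO 2 and KO 3, against 109, 96.9 and 106 CPM in WT 3, WT 6 and WT 7, so that KO 3 was its highest KO library too. These genes were picked for their profile over the same 6 libraries, and their likeness is a description.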

How the data were processed

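The deposited table gave whole-number read counts per gene and FPKM values for 6 libraries, which per the labels came from neurosphere RNA. Per the submitters' processing notes, the authors used HISAT2 2.0.5, featureCounts 1.5.0-p3 and DESeq2 1.16.1 on mm10, with unstated settings and annotation. The deposited FPKM columns repeat the names of the count columns, and multiplied by gene length and library total they gave back the count within 1 read for all 10 genes described.

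The 10 genes, all lists and the rules for naming genes were chosen with earlier results of these data known. KO was tested against WT in 1 fit of all 6 libraries with edgeR 4.0.16 in R 4.3.3 (filterByExpr defaults, TMM, two-sided quasi-likelihood F test, Benjamini-Hochberg over 16606 genes, threshold 0.05), after a check on simulated counts. CPM values are TMM-normalised, and log2 CPM has a prior count of 2. The SE is the absolute log2 fold change divided by the square root of F. With 3 libraries a group, no exact permutation p can be under 0.1. Named beyond the 10 genes were all other galectin and S100 genes, partners past the threshold and Anxa2, Ahnak, Lgals3bp and Itgb1, called genes between the S100 blocks, and the 3 genes nearest in profile to Lgals1, S100a6 and S100a1. Single marker genes were named after their values were seen. Alternatives were RLE factors, library totals, no filter, 1 CPM in 3 libraries, limma-voom with quality weights (limma 3.58.1), DESeq2 1.42.0, limma on log-scaled FPKM (pseudocounts 1 and 0.1, mean FPKM 0.5 or more), and each library left out.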

Additional observations from a re-analysis of the deposited data

How the results depend on the processing

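The counts of galectin and S100A genes called lower (5) kept that value under all 14 alternatives, and the count called higher was 2 to 3, with S100a11 as the gene gained. These genes were chosen on this contrast in the same libraries, so how far their calls held is a description and no support. Without a filter on low counts 8 other galectin and S100 genes were called in place of 4, and limma-voom with quality weights called 8052 genes in all in place of 4812. With 1 library left out, the counts ran from 2178 to 6641 for all genes, from 2 to 3 for the set called higher and 5 to 5 for the set called lower, from 3 to 6 for the other galectin and S100 genes, and from 7 to 16 for partners (14 with all libraries). The lowest counts of all genes and of partners came without WT 6. Partner calls were 8 without KO 1, without KO 2 or without WT 7, and genes called in all were 2889, 2516 and 2449 there. Directions turned for Lgals3 (-0.41 without KO 1, and up to 1.12 without KO 3) and for Itgb1 (-0.0163 without KO 2, -0.0179 without WT 3, and up to 0.20 without KO 1), neither of which was called. With log2(FPKM + 1) the folds of genes with low FPKM were smaller by construction, as for Lgals7 (0.78), Lgals9 (0.96) and Trim16 (0.91). Lgals3 stood at 0.06 with limma-voom. No paired analysis was possible because the groups share only replicate number 3. Depth limits S100a4, the calgranulins and other genes under 3 reads.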
